A study of Saccharomyces cerevisiae with 3 samples.

Results

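The mitochondrial ribosomal proteins of budding yeast are described here across 3 arrays that compared RNA of a fraction called Poly with RNA of a fraction called mRNP. Members were taken by gene symbol: MRPL, MRPS, RSM or MRP followed by a number, with MRP8 left out, and IMG1, IMG2 and MNP1 added. This gave 69 of the 5574 genes named on the array, on 79 spots. The large subunit has 41 of them and the small subunit 28. The names were checked against RefSeq, where all 69 have the same symbol and 68 carry a ribosomal protein family name such as bL12m for MNP1. By that name 43 have bacterial homologs and 25 are specific to mitochondria. The remaining member, RSM22, resembles methyltransferases and has no family name.

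The study followed Saccharomyces cerevisiae, budding yeast, through a fast change of carbon source, after which fermentation was no longer possible. The arrays are titled G0, Y5 and Y10, with 1 array for each title, and the labels give neither a unit for the numbers nor the strain or medium. Per the labels, Cy3 marked mRNP, read here as the messenger ribonucleoprotein fraction, and Cy5 marked Poly, taken to mean polysomes, which are mRNAs with several ribosomes on them. With 1 array for each title there is no replicate and no test, so differences are described by their size, with 1 log2 unit as the fixed size.

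A level below is the log ratio of a gene on 1 array, relative to the median of that array and averaged over the gene's spots. It is likely Poly over mRNP, since red over green is the usual direction, but the sources used here do not state the direction or the base of the logarithm. Base 2 was assumed. If the ratio was formed the other way round, all signs are inverted. A level compares the 2 fractions of 1 sample and does not measure how much of an mRNA the cells held. The G0 array gave values for 5548 genes, Y5 for 5563 and Y10 for 4446. The row numbers of Y10 had to be reassigned by a rule found in the data, and after it the correlation with Y5 across spots was 0.463, against 0.0155 by deposited row number. The correlation of Y10 with G0 was weaker, at 0.211 after the rule and 0.0374 before. G0 and Y5 correlated at 0.389. All statements on Y10 rest on that numbering. Genes with repeat spots gave a technical SD of 1 spot, which was 0.448 in Y5 minus G0, 0.631 in Y10 minus G0 and 0.558 in Y10 minus Y5. It includes no spread between cultures or between arrays.

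The mitochondrial ribosome makes the few proteins encoded in mitochondrial DNA, which in yeast are mostly core subunits of the respiratory chain and the ATP synthase. Nearly all of its proteins are encoded in the nucleus, made by cytosolic ribosomes and imported. Yeast needs them to grow on carbon sources it cannot ferment. Many of the mRNAs are bound by the protein Puf3 and are found near the mitochondrial surface.

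On all 3 arrays more members lay below the array median than above it. Their median level on G0 was −0.25, lower on Y5 at −0.52, and −0.22 on Y10. On G0, 45 of 69 members lay below 0 (49.7% of all genes) and 24 above (50.3% of all genes). On Y5, 57 of 69 lay below (52.7% of all genes) and 12 above (47.2% of all genes). On Y10, 36 of 57 lay below (50.1% of all genes) and 21 above (49.8% of all genes). The lowest quartile of all genes held 23 of 69 members on G0, 36 of 69 on Y5 and 23 of 57 on Y10. The highest quartile held 7, 2 and 4 members on the same arrays. The members spread less than genes at large, with SDs of 0.511 on G0, 0.477 on Y5 and 0.472 on Y10, against 0.698, 0.692 and 0.597 over all genes. Much of the members' spread may be spot error. The technical SD of 1 spot in a level, from repeat spots of all genes, was 0.453 (G0), 0.394 (Y5) and 0.434 (Y10). Of the 69 members, 59 have 1 spot. The rank of a single member within an array is therefore uncertain. Levels at least 1 below the array median were found for 4 members on G0 (4.56% of all genes), 8 on Y5 (6.63% of all genes) and 3 on Y10 (5.76% of all genes). At least 1 above it were 1 member on G0 (9.26% of all genes), 0 on Y5 (6.58% of all genes) and 1 on Y10 (2.81% of all genes).

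**Figure D1:**
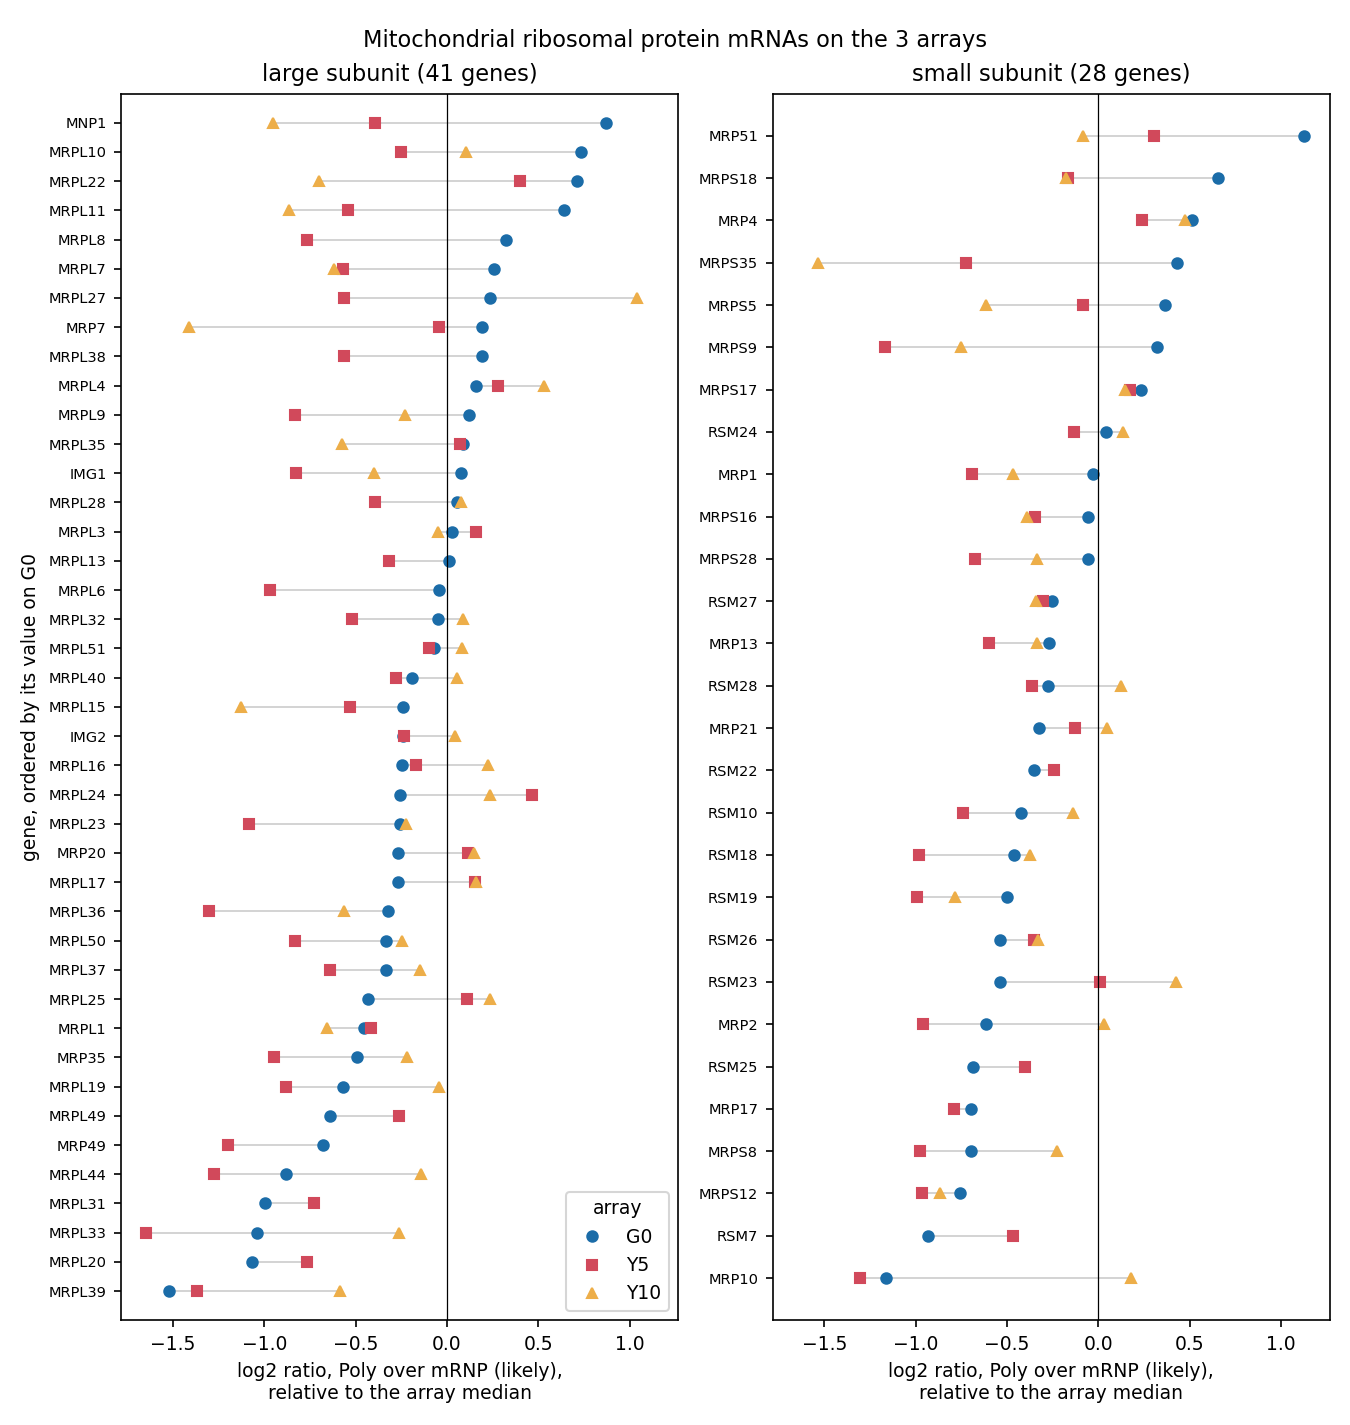
Level of each of the 69 mitochondrial ribosomal protein mRNAs on G0 (circles), Y5 (squares) and Y10 (triangles), as the log2 ratio relative to the array median, large subunit left and small subunit right. Genes are ordered by their G0 level, grey lines join the lowest and highest array, and 57 of 69 members on Y5 lie left of 0; 12 members have no Y10 value.

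A Y10 value was absent for 12 members, namely MRP17, MRP49, MRPL6, MRPL8, MRPL13, MRPL20, MRPL31, MRPL38, MRPL49, RSM7, RSM22 and RSM25. Their median was −0.66 on G0 and −0.65 on Y5, lower on both arrays than that of the 57 members on all 3 arrays, at −0.24 on G0 and −0.41 on Y5. Levels on Y10 therefore describe a set that lay higher on the other arrays.

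The highest member on G0 was MRP51, a small subunit protein named bS1m that has been tied genetically to translation of mitochondrial mRNAs through their leaders, at 1.13. It stood at 0.30 on Y5 and −0.08 on Y10. MNP1, the bL12m protein of the stalk that binds translation factors, followed on G0 with 0.87, then MRPL10 (uL15m) with 0.73, MRPL22 (uL22m, at the exit tunnel) with 0.71 and MRPS18 (uS11m, of the small subunit platform) with 0.65. The lowest on G0 were MRPL39 (bL33m) at −1.52, MRP10 (mS37, a small protein with paired cysteines) at −1.16, MRPL20 (mL58) at −1.07, MRPL33 (uL30m) at −1.04 and MRPL31 (mL60), just short of 1 below the median. Except for MRPL20, the lowest are among the shorter members.

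On Y5 the highest levels were those of MRPL24 (bL28m) at 0.47, MRPL22 at 0.40, MRP51 at 0.30, MRPL4 (uL29m, at the exit tunnel) at 0.28 and MRP4 (uS2m) at 0.24. The lowest were MRPL33 at −1.64, MRPL39 at −1.37, MRPL36 (bL31m, known for effects on mitochondrial translation of COX2) at −1.30, MRP10 at −1.30 and MRPL44 (mL53) at −1.27. MRPL33, MRPL39 and MRP10 were thus among the 5 lowest on both G0 and Y5. On Y10 they stood at −0.26, −0.59 and 0.18, and the lowest members were MRPS35 (mS45) at −1.53, MRP7 (bL27m, whose bacterial homolog reaches the peptidyl transferase centre) at −1.41, MRPL15 (mL57) at −1.13, MNP1 at −0.95 and MRPS12 (uS12m, of the decoding site in bacteria) at −0.87. MRPL27 (mL41) was the highest on Y10 at 1.04, followed by MRPL4 at 0.53, MRP4 at 0.47, RSM23 at 0.43 and MRPL24 at 0.24. RSM23 (mS29) is the homolog of human DAP3, a protein that binds GTP. MRPL4, MRP4 and MRPS17 (uS17m) were above 0 on all 3 arrays.

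Between Y5 and G0 the members lay lower on Y5 on balance, by a small amount. The median difference, Y5 minus G0, was −0.30, against −0.01 over all genes. Below 0 were 50 of 69 members (50.4% of all genes) and above it 19 (49.6% of all genes). By size, 5 members were at least 1 log2 unit lower on Y5 (10.5% of all genes) and 0 were at least 1 higher (4.02% of all genes). The share at least 1 lower was 7.25% among the members. Its place against all genes depended on the setting: with centring by sector of the array it was 10.1% of members and 9.57% of all genes, and with values read as natural logarithms 23.2% of members and 17.6% of all genes. Over the 4425 genes on all 3 arrays, 181 were at least 1 higher and 443 at least 1 lower, and after quantile normalization 229 and 346. Of the 57 members among them, 4 were at least 1 lower either way.

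The 5 members past 1 log2 unit are as follows. MRPS9, the uS9m protein of the small subunit head, had −1.17 on Y5 and 0.32 on G0, a difference of −1.49. MNP1 had −0.39 on Y5 and 0.87 on G0 (−1.26). MRPL11, the uL10m protein that holds the bL12m stalk proteins in bacterial ribosomes, had −0.54 on Y5 and 0.64 on G0 (−1.19). These 3 include both proteins that form the stalk. MRPS35 had −0.72 on Y5 and 0.43 on G0 (−1.15), and MRPL8 (bL17m) had −0.77 on Y5 and 0.33 on G0 (−1.09). All 5 lay below the array median on Y5 and above it on G0, and each had 1 spot. They were chosen by the difference of these levels, so the choice itself favours that pattern. With sector centring 7 members were at least 1 lower (9.57% of all genes). MNP1 (−0.64) and MRPL8 (−0.66) were then under 1, while of the other named members MRPL36 (−1.30), MRPL10 (−1.10) and MRPS18 (−1.05) passed it. The 7 are not all listed here.

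At the other end, MRPL24 had 0.47 on Y5 and −0.26 on G0, a difference of 0.72. RSM23 differed by 0.55, MRPL25 (mL59) by 0.54, RSM7 (uS7m, of the head) by 0.46 and MRPL17 (mL46) by 0.42. None of these 5 reached 1. MRPL10 (−0.99) and MRPL36 (−0.98) were just short of 1 on the low side without sector centring. MRP1 (mS43, related in sequence to superoxide dismutase and tied genetically to the COX3 activator PET122) differed by −0.66.

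**Figure D2:**
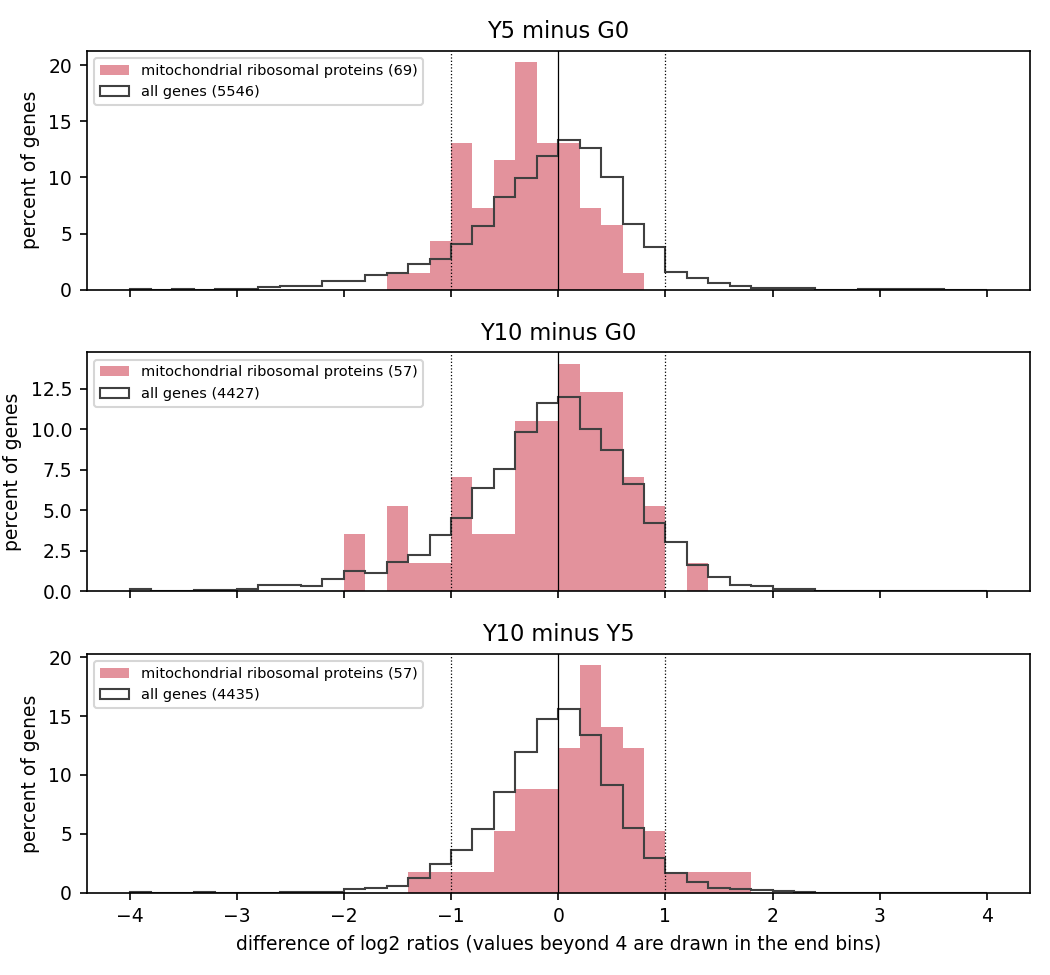
Difference of log2 ratios for the mitochondrial ribosomal proteins (filled) and for all genes (outline) in Y5 minus G0, Y10 minus G0 and Y10 minus Y5, as the percent of genes in bins, with dotted lines at 1 log2 unit. The members lie left of all genes in the top panel (median −0.30), around 0 in the middle panel (0.04) and right of all genes in the bottom panel (0.26).

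Between Y10 and G0 the members did not lie to 1 side. The median difference was 0.04, against −0.03 over all genes, with 30 of 57 members above 0 (48% of all genes) and 27 below (51.9% of all genes). With the arrays scaled to one spread the members' median was −0.01, and with sector centring also −0.01. At least 1 lower on Y10 were 7 members (12.1% of all genes), a share of 12.3%, and 1 member was at least 1 higher (6.51% of all genes). Over the 4425 genes on all 3 arrays, 288 were at least 1 higher and 536 at least 1 lower, and after quantile normalization 394 and 446. The members then gave 4 higher and 7 lower.

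The largest of these differences was that of MRPS35, with −1.53 on Y10 and 0.43 on G0 (−1.96). MNP1 had −0.95 on Y10 and 0.87 on G0 (−1.82), and MRP7 had −1.41 on Y10 and 0.19 on G0 (−1.60). MRPL11 had −0.86 on Y10 and 0.64 on G0 (−1.51). Each of these 4 had 1 spot and lay below the array median on Y10 and above it on G0, a pattern that choosing by the difference favours. MRPL22 differed by −1.42, MRP51 by −1.21 and MRPS9 by −1.07, the last of the 7. With sector centring MRPL11 (−0.87), MRP51 (−0.54) and MRPS9 (−0.43) were under 1, while MRPS18 (−1.23) passed it, giving 5 members (10.4% of all genes).

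The member at least 1 higher on Y10 than on G0 was MRP10, with 0.18 on Y10 and −1.16 on G0 (1.34). Its 2 spots differed by 1.79 and 0.89. RSM23 followed with 0.43 on Y10 and −0.54 on G0 (0.97), then MRPL39 (0.94), MRPL27 (0.80) and MRPL33 (0.78). MRPL44 differed by 0.74. Of these, MRP10, MRPL39, MRPL33 and MRPL44 had been low on G0, at −0.88 or below, which choosing by the difference from G0 also favours.

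Between Y10 and Y5 the members lay higher on Y10 on balance. The median difference was 0.26, against 0.01 over all genes, with 40 of 57 members above 0 (50.3% of all genes) and 17 below (49.6% of all genes). At least 1 higher on Y10 were 4 members (3.77% of all genes). MRPL27 had 1.04 on Y10 and −0.56 on Y5 (1.60), MRP10 had 0.18 on Y10 and −1.30 on Y5 (1.48), MRPL33 had −0.26 on Y10 and −1.64 on Y5 (1.38), and MRPL44 had −0.14 on Y10 and −1.27 on Y5 (1.14). Of these 4, MRPL27 alone stood above the array median by a large amount on Y10. At least 1 lower were MRP7 (−1.37) and MRPL22 (−1.10), 2 members (5.3% of all genes). With sector centring 0 were (3.29% of all genes), and MRP7 stood at −0.88 and MRPL22 at −0.65. In that setting 6 members were at least 1 higher (2.86% of all genes), MRPL36 (1.21) among them.

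Over the 57 members on all 3 arrays, Y5 held the lowest of the 3 levels for 30 members, 52.6%, against 30.1% of the 4425 genes on all 3 arrays. Y5 held the highest level for 3 members, 5.26%, against 29.4% of genes. The order Y5 below G0 below Y10 was the most frequent, with 19 members, against 12.2% of genes. These orders and the 3 differences share arrays and are not separate evidence.

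The large and the small subunit differed little in their medians. The large subunit had a median level of −0.24 on G0, −0.53 on Y5, then −0.15 on Y10. The small subunit had −0.30, −0.44 and −0.28. For Y5 minus G0 the medians were −0.31 over 41 large subunit members, 28 of them below 0, and −0.28 over 28 small subunit members, 22 of them below 0, where 50.4% of all genes were below 0. For Y10 minus G0 the medians were 0.14 (33 members) and −0.07 (24 members), a gap of 0.21 that turned to −0.024 with sector centring. For Y10 minus Y5 they were 0.33 and 0.23. Members with bacterial homologs had a Y5 minus G0 median of −0.45, with 34 of 43 below 0, and those specific to mitochondria −0.09, with 16 of 25 below 0, against the same 50.4% of all genes. For Y10 minus G0 these classes stood at −0.09 (37 members) and 0.17 (20 members). No test separates the classes, and each holds members from the top and the bottom of the range.

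Smaller groups were formed after the values were seen, by the place of the bacterial homolog in the ribosome. In the stalk that binds translation factors, MNP1 and MRPL11 were both lower on Y5 and on Y10 than on G0. MNP1 had 0.87 on G0, −0.39 on Y5, then −0.95 on Y10, and MRPL11 had 0.64, −0.54 and −0.86 on the same arrays. MRPL19 (uL11m), at the base of the stalk, had −0.57 on G0, −0.88 on Y5, then −0.04 on Y10 and was higher on Y10 than on G0. With sector centring, Y10 minus Y5 was −0.67 for MNP1 and 0.20 for MRPL11, which without it was −0.32.

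At the exit tunnel, where new proteins leave the ribosome, the 4 members had median levels of −0.02 on G0, 0.20 on Y5 and 0.10 on Y10. MRP20 (uL23m) had −0.27 on G0, 0.12 on Y5, then 0.15 on Y10, and MRPL4 had 0.16, 0.28 and 0.53. MRPL40 (uL24m) had −0.19, −0.28 and 0.05. MRPL22 was apart from these 3, with 0.71 on G0, 0.40 on Y5 and −0.70 on Y10. Around the peptidyl transferase centre, MRPL9 (uL3m) had 0.12 on G0, −0.83 on Y5, then −0.23 on Y10 and MRPL16 (uL16m) had −0.25, −0.17 and 0.23, so that with MRP7 (0.19, −0.04 and −1.41) each of the 3 had its lowest level on a different array.

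In the small subunit, the 5 head proteins were all below 0 on Y5, between −1.17 (MRPS9) and −0.47 (RSM7). The 4 of them measured on Y10 were all higher there than on Y5, by 0.21 (RSM19, uS19m) to 0.99 (MRP2, uS14m). So were 40 of 57 members and 50.3% of all genes. The 5 platform proteins were also all below 0 on Y5, between −0.98 (RSM18, bS18m) and −0.13 (MRP21, bS21m). On that array 82.6% of all members and 52.7% of all genes were below 0, so that neither group is set apart from the other members by this count. For the 5 body proteins Y5 minus G0 lay between −0.45 (MRPS5, uS5m) and −0.06 (MRPS17, uS17m). In this difference 50 of 69 members and 50.4% of all genes were below 0.

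Each of 10 members had 2 spots on the array, which shows how closely repeat spots read. On G0 the 2 spots of MRPL39 read −1.56 and −1.48, those of MRP10 −1.24 and −1.09, and those of MRPL7 (uL5m) 0.25 and 0.26. MRPL33 read −1.66 and −0.42 and RSM25 (mS23) −0.20 and −1.17 on the same array. Repeat spots thus read nearly alike for some members and, for MRPL33, more than 1 log2 unit apart.

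For Y5 minus G0 the spots of MRPL7 gave −0.76 and −0.88, those of MRP2 −0.26 and −0.42 and those of MRPL15 −0.26 and −0.33. The spots of MRP10 (0.24 and −0.52), MRPL51 (mL43, 0.15 and −0.21) and RSM25 (−0.25 and 0.82) had opposite signs. RSM26 (mS42, which like MRP1 is related to superoxide dismutase) gave 0.31 and 0.06, and MRPL40 −0.10 and −0.07.

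On Y10, 5 members kept both spots. Those of MRPL39 read 0.09 and −1.26 there, so its difference from G0 was 1.65 by 1 spot and 0.22 by the other. MRPL33 gave 1.36 and 0.19 for Y10 minus G0, MRPL7 −0.28 and −1.47, and MRPL15 −0.52 and −1.26. Each of the 5 had the same sign on both spots in this difference, while the sizes differed between the spots. Taken against Y5 instead, the spots of MRPL7 (0.48 and −0.59) and MRPL39 (1.58 and −0.02) had opposite signs. Those of MRP10, MRPL15 and MRPL33 kept the same sign. Over all genes with repeat spots, the correlation between spots was 0.543 in Y5 minus G0 (880 genes). It was weaker where Y10 was involved, at 0.268 against G0 (449 genes) and 0.197 against Y5 (453 genes).

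Members differ in length, and their levels went with it on 2 of the arrays. The lengths are coding lengths from RefSeq, which for genes with introns may exceed the coding sequence. They run from 213 bp in MRPL39 to 1887 bp in RSM22, with a median of 654 bp, against 1262 bp over all genes. The members were split at 500 bp, a length chosen after the values were seen. On G0, members under 500 bp had a median level of −0.50 (26 members) and longer ones −0.03 (43 members). On Y5 the medians were −0.86 and −0.35 for the same members. On Y10 they were −0.22 (21 members) and −0.20 (36 members).

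Over all genes, those under 500 bp had medians of −0.45 on G0, −0.53 on Y5, then −0.20 on Y10, and longer genes 0.05, 0.01 and 0.02. The members under 500 bp were therefore near all genes under 500 bp on G0 and Y10 and lower on Y5. The longer members were lower than longer genes on all 3 arrays, but lengths within this bin were not matched. The median length was 654 bp for members and 1262 bp over all genes, and over all genes the level rose with length. Whether the longer members differ from genes of like length was not tested. Spearman's rank correlation of level with length across the members was 0.505 on G0 (69 members), 0.57 on Y5 (69) and 0.0258 on Y10 (57), against 0.317, 0.478 and 0.344 across all genes. These are descriptions across genes of 1 array each, which share the hybridisation and the centring.

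The differences that involve Y10 also went with length. For Y10 minus Y5 the members' median was 0.61 under 500 bp and 0.10 above, against 0.29 and −0.03 over all genes. For Y10 minus G0 it was 0.28 under 500 bp and −0.22 above, against 0.17 and −0.06 over all genes. For Y5 minus G0 the medians were −0.31 under 500 bp and −0.29 above, against −0.05 and 0.00 over all genes, so that this difference did not go with length among the members.

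**Figure D3:**
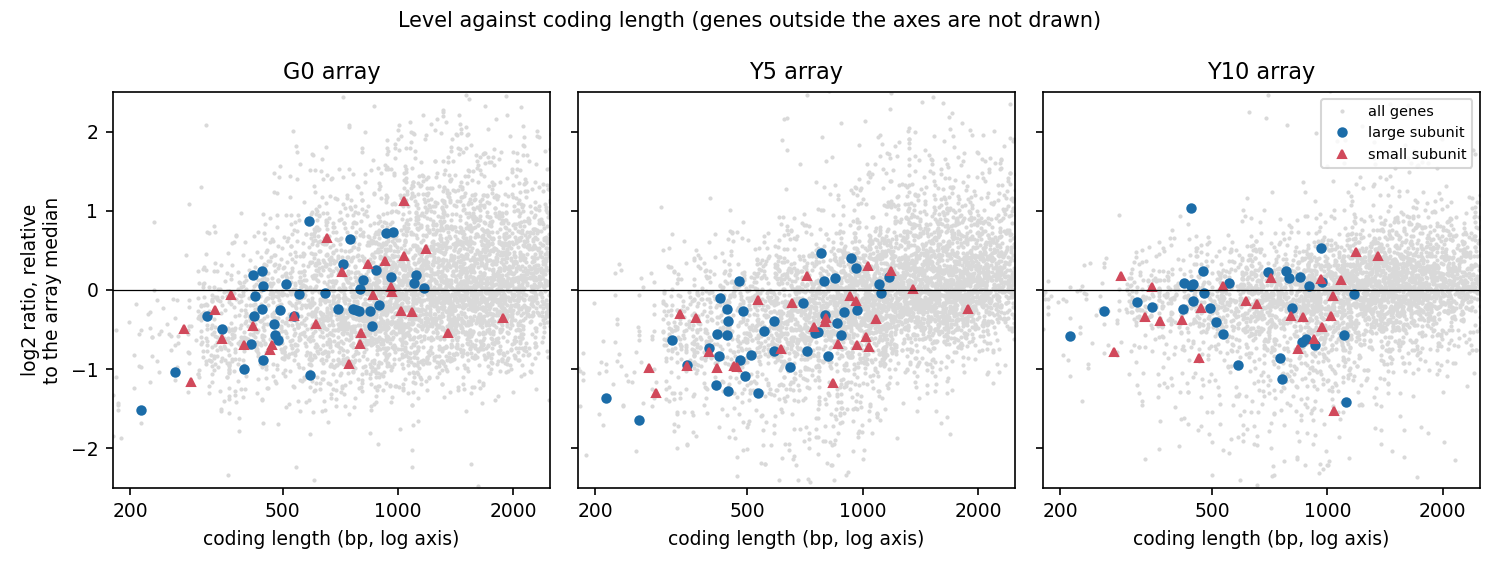
Level against coding length on the G0, Y5 and Y10 arrays for large subunit members (circles), small subunit members (triangles) and all genes (grey dots), with length on a log axis. Short members lie lowest on G0 and Y5 (rank correlation 0.505 and 0.57 across members), and no such slope is seen on Y10 (0.0258).

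Other genes of mitochondrial translation did not share 1 direction. Of 8 mitochondrial ribosomal proteins with other names, 1 was past 1 on the low side for Y5 minus G0 (10.5% of all genes). It was NAM9 (uS4m), with −0.93 on Y5 and 0.43 on G0 (−1.36), and YML6 (uL4m) was the highest at 0.74. The median of the 8 for Y5 minus G0 was −0.28, with 5 of 8 below 0 (50.4% of all genes). For Y10 minus G0 their median was −0.01, between −0.80 for NAM9 and 0.78 for FYV4 (a small subunit protein).

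Among 8 translation factors, 2 passed 1 on the low side for Y5 minus G0 (10.5% of all genes). TUF1, the mitochondrial elongation factor Tu, had 0.32 on Y5 and 2.19 on G0 (−1.88), and MEF2, which acts in ribosome recycling, had 0.07 on Y5 and 1.53 on G0 (−1.46). On Y10 TUF1 stood at 0.43, 1.76 below its G0 level, and GUF1, the relative of bacterial LepA, at −0.92, which was −1.19 from G0 and −1.09 from Y5. RRF1, the recycling factor, was the highest of the list, at 0.66 for Y5 minus G0 and 1.19 for Y10 minus G0.

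The 17 translational activators, which help single mitochondrial mRNAs to be translated, were mostly low on G0, with a median of −0.46 and 14 of 17 below 0 (49.7% of all genes). Their Y5 minus G0 median was 0.00 (9 of 17 below 0, and 50.4% of all genes), with MSS51, for COX1, at −1.58 and PET122, for COX3, at −1.11 past 1 on the low side and CBS1, for COB, at 1.06 on the high side. For Y10 minus G0 the median was 0.63 (9 of 15 above 0, and 48% of all genes), with 4 at least 1 higher (6.51% of all genes), namely PET122 (1.68), CBS1 (1.35), AEP3 (1.13) and AEP1 (1.02), and RMD9 at −1.01. PET122 had −0.96 on G0, −2.07 on Y5, then 0.71 on Y10, and its Y10 minus Y5 difference of 2.78 was the highest in the list, with AEP2 (−0.88) the lowest. CBS2 was 1.17 higher on Y10 than on Y5.

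Mitochondrial tRNA synthetases stayed near 0. Of 12, 0 were past 1 in any of the 3 differences. Over all genes, 4.02% were at least 1 higher and 10.5% at least 1 lower for Y5 minus G0. These shares were 6.51% and 12.1% for Y10 minus G0 and 3.77% and 5.3% for Y10 minus Y5. Among the 12, Y5 minus G0 lay between −0.69 (MSE1) and 0.19 (ISM1) and Y10 minus G0 between −0.55 (SLM5) and 0.50 (MSR1). Of 6 ribosome assembly genes with a Y5 minus G0 value, 0 passed 1, against the same shares of all genes. ATP25 was at −0.44 and the rRNA methyltransferase MRM1 at 0.92, and on Y10 ATP25 differed from G0 by −1.29. Among 7 genes of membrane receptors for the ribosome and of protein insertion, YLH47 was 1.10 higher on Y5 than on G0, and MBA1, which docks the ribosome at the inner membrane, differed by −0.52 on Y5 and −1.37 on Y10. Among 6 genes of mitochondrial DNA transcription and upkeep, MGM101 differed by −1.03 for Y5 minus G0, while RPO41, the mitochondrial RNA polymerase, stayed high, with 1.25 on G0, 1.35 on Y5 and 0.99 on Y10. PUF3 was at 0.98 on Y5 and 0.27 on G0 (0.71), and HAP4, the activator of respiratory genes, at 0.74 on Y5 and −0.37 on G0 (1.11). Neither had a Y10 value.

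**Figure D4:**
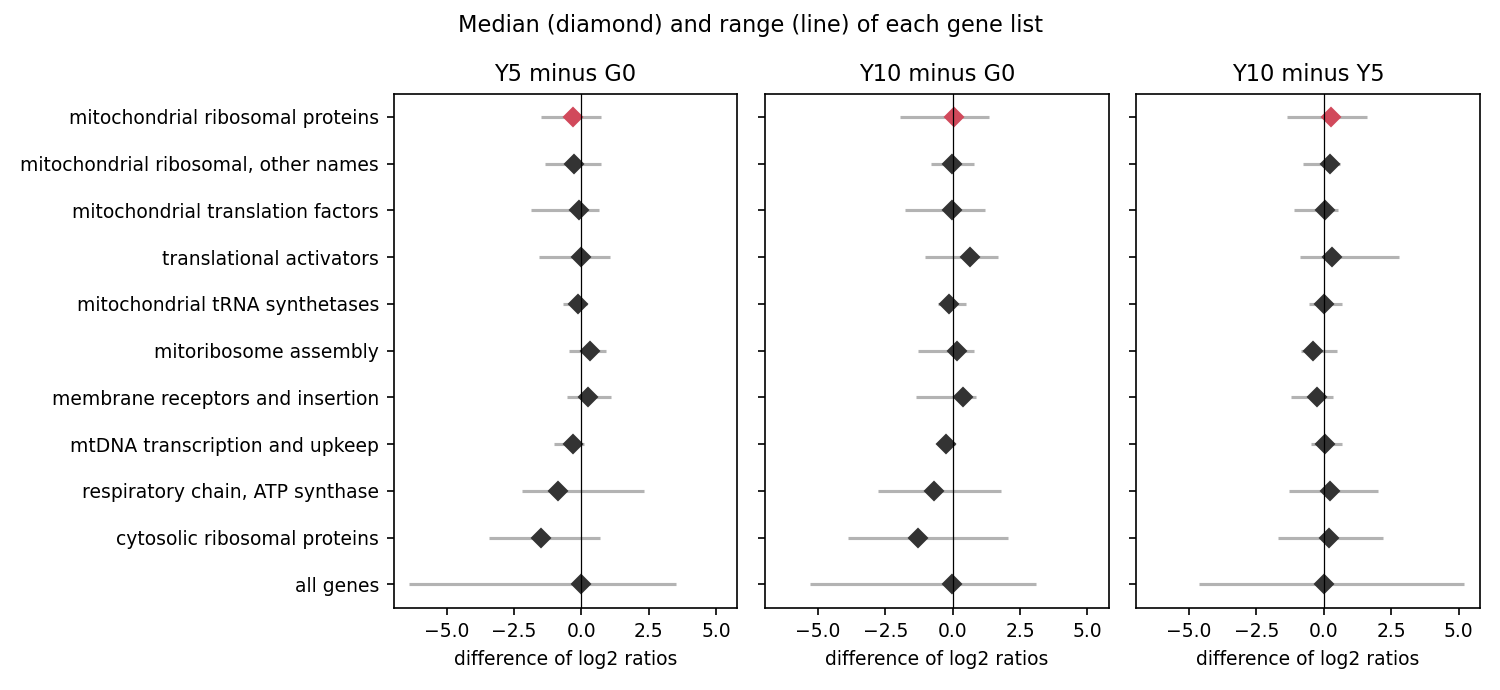
Median (diamonds) and range from lowest to highest gene (lines) of the difference of log2 ratios for the mitochondrial ribosomal proteins, other lists of mitochondrial genes, cytosolic ribosomal proteins and all genes. For Y5 minus G0 the mitochondrial ribosomal proteins (−0.30) lie between all genes (−0.01) and the respiratory chain (−0.87) or cytosolic ribosomal proteins (−1.50).

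Set beside the cytosolic ribosomal proteins, which build the other ribosome of the cell, the mitochondrial ones showed few large differences. For Y5 minus G0, 5 of 69 mitochondrial members and 94 of 131 cytosolic ones passed 1 on the low side (10.5% of all genes). For Y10 minus G0 the counts were 7 of 57 and 65 of 108 (12.1% of all genes). On G0 the mitochondrial members had the lower median level, −0.25 against −0.08 for the cytosolic ones, and on Y5 the higher, −0.52 against −1.57 for the cytosolic ones. The list of respiratory chain and ATP synthase genes of the nucleus had a Y5 minus G0 median of −0.87. Its products join those made by the mitochondrial ribosome. In the list, 14 of 39 genes were at least 1 lower on Y5 (10.5% of all genes) and 2 at least 1 higher (4.02% of all genes). On G0 the median level of the list was 0.33, with 17 of 39 genes below 0 (49.7% of all genes). ATP1, the ATP synthase alpha subunit, at 1.67 and RIP1, the Rieske iron-sulfur protein, at 1.81 were above every mitochondrial ribosomal protein on that array. ATP15 (−1.88) and QCR6 (−1.68) were below every mitochondrial ribosomal protein there. These lists were set side by side without a test.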

How the data were processed

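Each of the 3 samples is a two-colour array, with mRNP in Cy3 and Poly in Cy5, per the labels. The deposited table holds 1 log ratio of the 2 channels per spot for 8832 spots, as the authors deposited them, and taken here as log2 values. Per the labels, each array has 1 scan image. The sources used here state no base, direction, scanner, background correction or normalization. The deposited column medians are 0.0735 on G0, 0.067 on Y5 and 0.071 on Y10. No channel intensities were used, so signal over background is unknown. Precision is limited by having 3 arrays.

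Row numbers of Y10 were reassigned from sectors of 252 spots to sectors of 276, keeping the first 192 of each. Arrays were centred on their medians and spots averaged per gene. The platform annotation names 6623 spots with 1 symbol, 0 with several and leaves 2209 unnamed, and all 5574 genes matched RefSeq (assembly R64) through gene identifiers. No coordinates are given because no build is named for the array. Lengths are written as coding lengths because 96.8% are multiples of 3.

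Named members were the 5 highest and 5 lowest on each array and in each difference, those at least 1 log2 unit from 0 in a difference, those with 2 spots, and MNP1, RSM23, MRP51, MRPL36 and MRP1. Of each other list, except the respiratory and cytosolic ones, the highest and lowest gene for Y5 minus G0 were named, with PUF3 and HAP4. Members named by ribosomal place, and further genes of the lists, were chosen after their values were seen. Members and lists were chosen with earlier results of these data known. Calculations used Python 3.11.15 with pandas 2.3.3 and were tested on simulated data. Alternatives changed the centring, scaling, numbering, spots, genes and logarithm base.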

Additional observations from a re-analysis of the deposited data

How the results depend on the processing

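The directions of the median differences for Y5 minus G0 and Y10 minus Y5 held under every alternative that kept the reassigned Y10 numbering. The run by deposited row number cannot bear on Y10 minus Y5, because Y10 then correlated with Y5 at only 0.0155 across spots. The median for Y10 minus G0 lay near 0 in the main setting and was −0.01 with sector centring and with one spread. With sector centring the median level was −0.14 on G0 and −0.41 on Y5. The gap between large and small subunit medians was then 0.20 on G0 and −0.024 for Y10 minus G0. In that setting 0 members were at least 1 lower for Y10 minus Y5 (3.29% of all genes). With arrays scaled to one spread, 3 members were at least 1 higher for Y10 minus G0 (6.44% of all genes). After quantile normalization that count was 4 (8.9% of all genes), the Y5 median −0.37 and the subunit gap on Y5 0.065. Over genes on all 3 arrays the Y5 median was −0.42, and with other-named mitochondrial ribosomal proteins added −0.43. Among members with 2 or more spots on each array the medians were −0.58 on G0 and −0.11 for Y5 minus G0 (10 members), and −0.59 on Y10, 0.78 for both Y10 differences (5 members). Their counts at least 1 lower were 0 in all 3 differences, and 2 were at least 1 higher for Y10 minus Y5, with fewer genes in each. With the last 60 spots of each Y10 sector added, 4 members were at least 1 higher against G0 (6.65% of all genes) and 7 against Y5 (5% of all genes). By deposited row number the Y10 median was 0.10, the Y10 minus G0 median 0.24 with 7 members at least 1 higher (8.56% of all genes), and the Y10 minus Y5 median 0.50 with 16 higher (11.3%) and 1 lower (12.1%). Read as natural logarithms, all values grow, to medians of −0.36 on G0, −0.75 on Y5, −0.31 on Y10, −0.44 for Y5 minus G0 and 0.38 for Y10 minus Y5. The counts then were 1 higher (10.5% of all genes) and 16 lower (17.6%) for Y5 minus G0, 6 higher (14%) and 11 lower (19.9%) for Y10 minus G0, and 11 higher (9.22%) for Y10 minus Y5. Where no construction shows it, the cause was not tested. For single named genes, 331 recomputed differences moved by less than the repeat-spot SD and 9 by more, and 0 past 1 log2 unit changed sign. The rank correlation with coding length, recomputed in settings chosen after seeing the data, lay between −0.0129 and 0.0963 on Y10. No paired analysis was possible because each title has 1 array.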
